A study of Mus musculus with 5 samples.

Results

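The step from 16 h to 24 h of food withdrawal was examined in isolated mouse hepatocytes, the metabolic cells that make up most of the liver. Every barcode that the deposited barcode table gives to the 24 h library was set against every barcode of the 16 h library. That was 8558 barcodes at 24 h and 9460 at 16 h, together 18018 of the 47473 in the series. Each library was 1 targeted single-cell library of 64 genes, read as unique molecular identifiers (UMIs, tags that mark single RNA molecules), so no value has a replicate error and no test was made.

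All mice were wild-type C57BL/6J males on normal chow. The labels used here give neither their age nor how many mice stand behind a library. They were trained for 3 days to fast for 16 h and feed for 8 h. Before the fast they ate chow and drank water with 20% sucrose, and both were removed at clock hour 13. The 16 h library was collected at clock hour 5 and the 24 h library at clock hour 13 of the next day. Fasting time and time of day therefore changed together and cannot be told apart in this comparison. The fed library (0 h, after 4 h of feeding) was taken at the same clock hour as the 24 h library. The 8 h and 30 h libraries were taken at clock hours 21 and 19.

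Early in a fast the liver breaks down glycogen, and later it makes glucose from lactate, glycerol and amino acids while it shuts down the synthesis of fat. Falling insulin and rising glucagon drive much of this switch. The liver clock and the feeding rhythm act on many of the same genes, among them those of bile acid synthesis. Bile acids are made from cholesterol, either through the classic route that starts with Cyp7a1 or through the acidic route that uses Cyp27a1 and Cyp7b1. Hepatocytes also divide the work by position: periportal cells lie near the incoming blood and pericentral cells near the central vein.

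The 16 h library held 6154934 panel UMIs with a median of 651 per barcode, and the 24 h library 10432123 with a median of 1202.5. Mean UMIs per barcode were 1.87-fold higher at 24 h. Alb, the albumin gene, took 70.9% of the UMIs at 16 h and 71.8% at 24 h, and every barcode of both libraries had an Alb UMI. Levels are given as CPM, UMIs of a gene per 1000000 panel UMIs of the library. Leaving Alb out of the total adds 0.046 to every log2 ratio of 24 h over 16 h. Counting per barcode adds 0.91, so a gene with a CPM log2 ratio between -0.91 and 0 had more UMIs per barcode at 24 h. Whether a deeper 24 h library or more RNA per cell underlies that shift cannot be told apart. The libraries shared 17 barcode sequences. Intervals in parentheses are 95% intervals and cover counting error only. Markers of other liver cells on the panel were 6 of the 18 listed (Cdh5, Mrc1, Cd68, Ptprc, Pdgfra and Pdgfrb). They summed to 34.4 CPM at 16 h and 43.2 CPM at 24 h, and at least 3 such UMIs were found in 4 and 17 barcodes.

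Of 64 panel genes, 55 had at least 100 UMIs in both libraries together. Among these, 4 were over 2-fold higher at 24 h (7.27%), among them Cyp7a1, Igfbp1 and Glul. Over 2-fold lower were 7 (12.7%): Elovl3, Fgf21, Hsd3b7, Cyp2c70, Cyp7b1, Fasn and Srebf1. The median log2 ratio of the 55 genes was -0.046. Without Alb in the denominator the counts were 4 (7.41%) and 6 (11.1%), as Srebf1 moved to -0.97. Glul (1.02) and Srebf1 (-1.01) lay just past 2-fold, and Mrc1 (0.77) and Pklr (-0.76) were the nearest within it. In UMIs per barcode 19 genes were over 2-fold higher (34.5%) and 2 lower (3.64%), and all 11 genes past 2-fold in CPM kept their direction. In either direction this step had 11 of 55 genes past 2-fold (20%), against 17 of 56 from 0 h to 8 h (30.4%), 18 of 56 from 8 h to 16 h (32.1%) and 8 of 55 from 24 h to 30 h (14.5%).

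**Figure D1:**
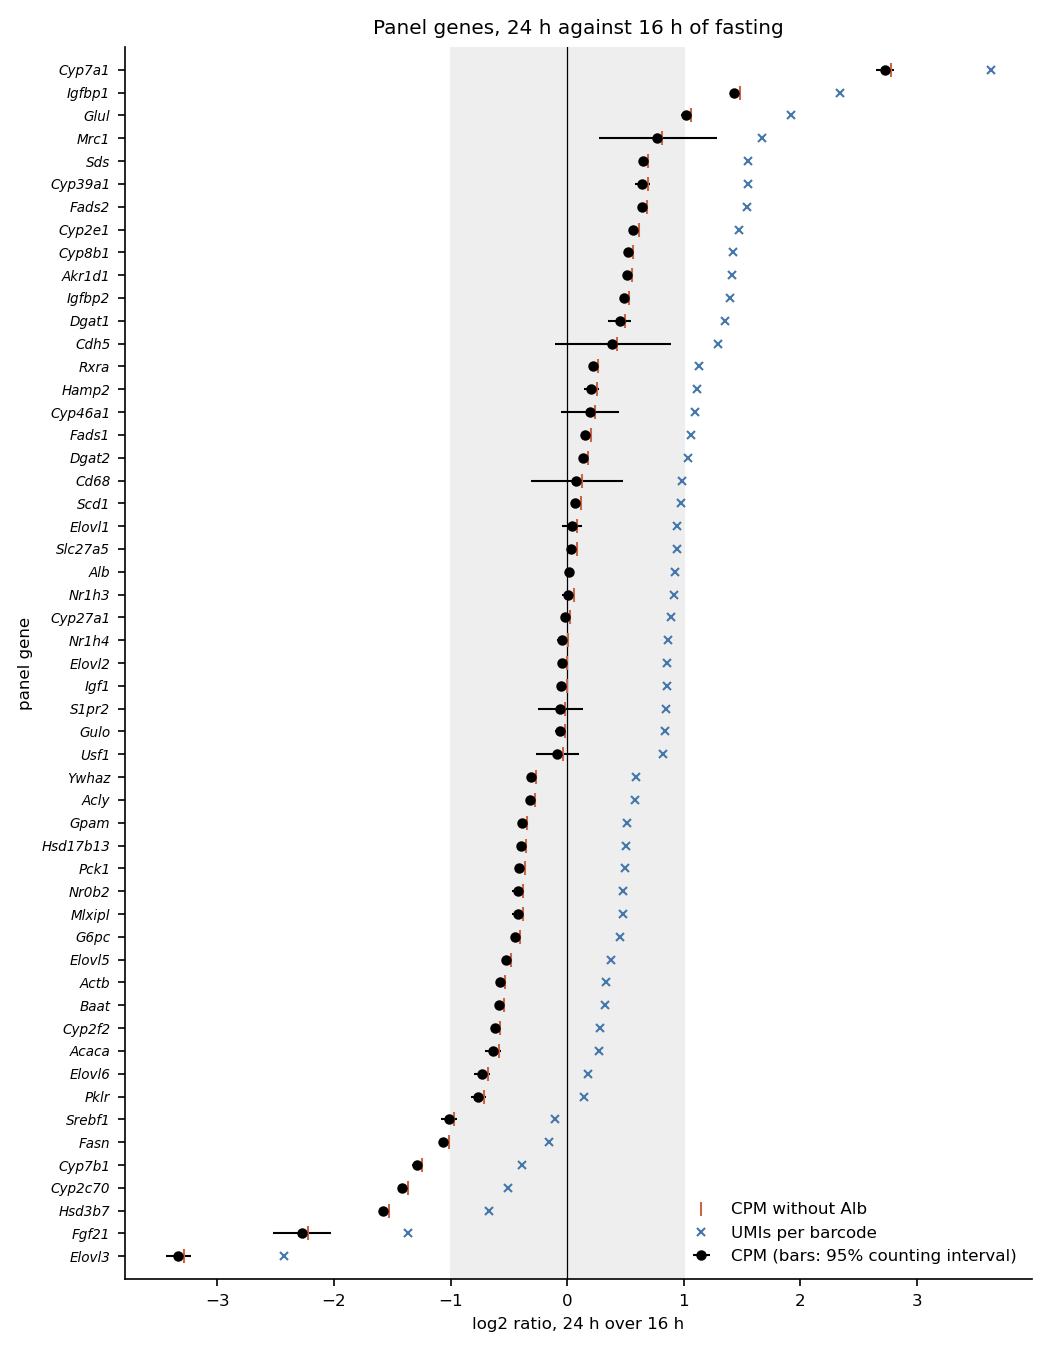
Log2 ratio of 24 h over 16 h for 53 of the 55 panel genes with at least 100 UMIs, in CPM (black points with 95% counting intervals), in CPM without Alb (orange ticks) and in UMIs per barcode (blue crosses), with the range within 2-fold in grey. In CPM, 3 of the genes drawn lie to the right of the grey range and 7 to the left; in UMIs per barcode each point lies 0.91 to the right of its CPM value.

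For 7 of the 11 genes past 2-fold the RefSeq promoter table (GRCm38.p6) holds an entry. The 250 bases before the gene start were searched on both strands for CACGTG (the E-box of clock and lipogenic factors), TTATGNAA (a D-box-like element), AGGTCA (the core bound by many nuclear receptors), GTAAACA (a forkhead element) and TGACG (the core of the cAMP response element). Each letter run was counted alone, and no match overlapped another in the sequences shown. The 3 genes with a match are shown, 5′ to 3′ on the gene's strand, with the matches in capitals: Fgf21 (chr7:45615491-45615740, minus strand), Glul (chr1:153899679-153899928, plus strand) and Cyp2c70 (chr19:40187287-40187536, minus strand).
Fgf21: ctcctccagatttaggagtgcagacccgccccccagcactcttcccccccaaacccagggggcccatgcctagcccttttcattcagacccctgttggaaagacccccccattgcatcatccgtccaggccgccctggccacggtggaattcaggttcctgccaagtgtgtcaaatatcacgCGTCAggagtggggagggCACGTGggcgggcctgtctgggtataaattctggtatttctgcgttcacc
Glul: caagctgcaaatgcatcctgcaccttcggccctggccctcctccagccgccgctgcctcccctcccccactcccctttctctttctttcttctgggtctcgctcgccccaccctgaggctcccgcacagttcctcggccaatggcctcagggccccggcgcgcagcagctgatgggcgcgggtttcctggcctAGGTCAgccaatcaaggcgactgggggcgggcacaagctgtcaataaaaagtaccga
Cyp2c70: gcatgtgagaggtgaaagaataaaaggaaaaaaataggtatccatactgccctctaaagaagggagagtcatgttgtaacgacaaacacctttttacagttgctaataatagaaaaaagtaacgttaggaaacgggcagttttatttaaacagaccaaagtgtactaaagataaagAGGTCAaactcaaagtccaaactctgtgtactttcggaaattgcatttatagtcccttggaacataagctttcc
Fgf21 holds a CACGTG that starts 50 bases before the gene start, and a TGACG, on the opposite strand, that starts 68 bases before it. Glul and Cyp2c70 each hold an AGGTCA, which starts 57 and 74 bases before the start. Distances are from the RefSeq start, which for Glul and Cyp2c70 is not the GENCODE start given with the gene; the Cyp2c70 window lies partly inside its GENCODE gene. Of all 32851 promoter entries, 6.02% hold CACGTG in this window, 14.0% AGGTCA and 17.8% TGACG. These are letter matches and no measure of binding. Fgf21 and Cyp2c70 were lower at 24 h and Glul was higher.

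Bile acid synthesis held the largest ratio of the 55 genes and 3 of the 7 genes past 2-fold in the other direction. Of 17 listed genes, 11 were on the panel and all 11 were tested. Of these 1 was over 2-fold higher, 3 were over 2-fold lower and 7 lay within. Over all 55 genes 7.27% were higher and 12.7% lower by that much. Their median log2 ratio was 0.037, against -0.046 for all 55 genes. Counting per barcode, 8 of the 11 were higher at 24 h, against 48 of all 55 genes.

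Cyp7a1 (ENSMUSG00000028240; GRCm38 chromosome 4, 6265612 to 6275633) encodes the rate-limiting enzyme of the classic route. It stood at 247 CPM at 16 h (235 to 260) and at 1642 CPM at 24 h (1617 to 1667). The log2 ratio was 2.73 (2.66 to 2.81), or 6.64-fold. The 16 h value was the lowest of the 5 libraries and the 24 h value the highest, against 698 CPM in the fed library, 1173 after 8 h and 645 after 30 h. Cyp8b1, the sterol 12-hydroxylase that directs the route to cholic acid, was at 1994 and 2863 CPM (log2 0.52, 0.49 to 0.55). Akr1d1, the reductase of the steroid ring, stood at 1703 and 2431 CPM (log2 0.51). Cyp39a1, which hydroxylates 24-hydroxycholesterol, stood at 464 and 727 CPM (log2 0.65).

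The enzyme that follows the 7-hydroxylases went the other way from Cyp7a1. Hsd3b7 (ENSMUSG00000042289; chromosome 7, 127800604 to 127803802), the dehydrogenase that both routes use, stood at 5084 CPM at 16 h (5028 to 5141) and at 1705 CPM at 24 h (1680 to 1730). That is a log2 ratio of -1.58 (-1.60 to -1.55), 2.98-fold lower at 24 h. Its highest level of the 5 libraries was at 16 h, against 1471 CPM in the fed library, 3968 after 8 h and 2647 after 30 h. An exon of Gm49388 overlaps Hsd3b7 on the same strand, so its UMIs can include those of that gene. Cyp2c70 (ENSMUSG00000060613; chromosome 19, 40153353 to 40187333), which makes the muricholic acids of mice, stood at 4183 CPM at 16 h and 1571 at 24 h, log2 -1.41 (-1.44 to -1.38). Over the 5 libraries Cyp2c70 was at 2985, 4705, 4183, 1571 and 786 CPM, lower in each library after 8 h than in the one before.

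In the acidic route the opening hydroxylase and the 7-hydroxylase differed. Cyp27a1 stood at 1622 CPM at 16 h and 1603 at 24 h, with an interval of its log2 ratio that includes 0 (-0.053 to 0.018). Cyp7b1 (ENSMUSG00000039519; chromosome 3, 18071950 to 18243338) stood at 1916 and 783 CPM, log2 -1.29 (-1.33 to -1.25) or 2.45-fold lower, its highest and lowest values of the 5 libraries. Of the conjugating enzymes, Slc27a5, which activates bile acids with coenzyme A, was at 3951 and 4054 CPM. Baat, which joins them to taurine or glycine, was at 2266 and 1512 CPM (log2 -0.58). In UMIs per barcode Baat was higher at 24 h (log2 0.32), while Hsd3b7 (-0.67), Cyp2c70 (-0.51) and Cyp7b1 (-0.39) stayed lower.

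Of 9 listed genes of bile acid transport and sensing, 4 were on the panel and 3 were tested. None was past 2-fold, against 20% of all 55 genes. The bile acid receptor Nr1h4 stood at 1203 and 1169 CPM. Nr0b2, a repressor that it induces, stood at 863 and 644 CPM, log2 -0.42 (-0.47 to -0.37), but at log2 0.48 in UMIs per barcode. S1pr2, a receptor for conjugated bile acids, stood at 58.7 and 56.3 CPM. Fgf15 had 0 UMIs in both libraries, which, taken to allow 3 counts in each, leaves up to 0.487 CPM at 16 h and 0.288 CPM at 24 h.

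Of 8 listed genes of the insulin and IGF axis, 4 were on the panel: 1 was over 2-fold higher, 1 over 2-fold lower and 2 lay within. The shares over all 55 genes were 7.27% higher and 12.7% lower. The median log2 ratio of the 4 was 0.22, against -0.046 for all genes. Igfbp1 (ENSMUSG00000020429; chromosome 11, 7197782 to 7202546) encodes an IGF binding protein that insulin represses. It stood at 1459 CPM at 16 h and 3952 at 24 h, log2 1.44 (1.40 to 1.47) or 2.71-fold. Igfbp2, another binding protein, stood at 5768 and 8094 CPM (log2 0.49), and Igf1 itself at 10707 and 10347 CPM (log2 -0.049, but 0.86 in UMIs per barcode).

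Fgf21 (ENSMUSG00000030827; chromosome 7, 45613886 to 45615490) encodes a liver hormone of the fasting response. It had 513 UMIs at 16 h and 180 at 24 h, from 83.3 CPM (76.3 to 90.9) to 17.3 CPM (14.8 to 20.0). The log2 ratio was -2.27 (-2.53 to -2.02), 4.83-fold lower. The 24 h level was the lowest of the 5 libraries, below 39.3 CPM at 0 h and 49.3 at 8 h, and the 30 h level of 115 CPM the highest. Thinned to 300 UMIs per barcode its ratio was -1.90.

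Pklr, the liver pyruvate kinase that ends glycolysis, stood at 667 CPM at 16 h and 394 at 24 h (log2 -0.76), though at 0.15 in UMIs per barcode.

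Of 15 listed genes of gluconeogenesis and amino acid breakdown the panel held 3, none of them past 2-fold, against 20% of all 55 genes. Pck1, the enzyme that commits oxaloacetate to glucose, differed by a log2 ratio of -0.41 (-0.42 to -0.40). G6pc, which releases free glucose, differed by -0.45 (-0.47 to -0.43). Both were higher at 24 h in UMIs per barcode, by 0.50 and 0.46: Pck1 went from 23.9 to 33.7 UMIs per barcode and G6pc from 4.87 to 6.68. Sds, which turns serine into pyruvate, was higher on each scale, at 2155 and 3379 CPM (log2 0.65, 0.62 to 0.68).

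Of 9 listed genes of fatty acid synthesis 5 were on the panel, with 1 over 2-fold lower and a median log2 ratio of -0.63. Over all 55 genes 12.7% were that much lower, and the median was -0.046. Fasn (ENSMUSG00000025153; chromosome 11, 120805846 to 120824547), the fatty acid synthase, stood at 1862 CPM at 16 h and 892 at 24 h, log2 -1.06 (-1.10 to -1.02). Acaca, which makes malonyl-CoA for it, stood at 568 and 366 CPM (log2 -0.63), and Acly, which supplies acetyl-CoA, at 2547 and 2038 CPM (-0.32). Elovl6, which lengthens the product, stood at 576 and 347 CPM (-0.73). Scd1, the desaturase, was at 93956 and 98785 CPM (log2 0.072). In UMIs per barcode 4 of these 5 were higher at 24 h, near the 48 of 55 over all genes, and Fasn lay at -0.16.

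Of 12 listed transcription factors 5 were on the panel. Over 2-fold lower was 1, against 12.7% of all 55 genes, and the median log2 ratio was -0.42. Srebf1 (ENSMUSG00000020538; chromosome 11, 60199089 to 60222581), the master factor of lipogenesis under insulin, stood at 606 and 300.3 CPM, log2 -1.01 (-1.08 to -0.94). An exon of Mir6922 overlaps it. In UMIs per barcode its ratio was -0.11. Mlxipl, the glucose-responsive factor ChREBP, stood at 881 and 657 CPM (log2 -0.42), and at 0.48 in UMIs per barcode. Nr1h3, the oxysterol receptor LXR alpha, stood at 712 and 718 CPM, with an interval that includes 0 (-0.042 to 0.066). Without Alb its log2 ratio was 0.058 (0.0040 to 0.11), and in UMIs per barcode it was 0.92. An exon of Gm13783 overlaps Nr1h3 on the same strand.

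All 5 listed fatty acid elongases were tested, with 1 over 2-fold lower, against 12.7% of all 55 genes. Their median log2 ratio was -0.52. Elovl3 (ENSMUSG00000038754; chromosome 19, 46131897 to 46135694), which lengthens saturated and monounsaturated chains and is known for its daily rhythm in liver, stood at 843 CPM at 16 h (820 to 866) and 83.5 CPM at 24 h (78.0 to 89.2). That is log2 -3.34 (-3.44 to -3.23) or 10.1-fold lower, from 5187 to 871 UMIs. It was also 5.39-fold lower in UMIs per barcode. Elovl5, which acts on polyunsaturated chains, stood at 4490 and 3122 CPM (log2 -0.52, but 0.38 in UMIs per barcode). Elovl2 stood at 5232 and 5069 CPM (log2 -0.046), and Elovl1 at 283 and 291 CPM (0.040). Of the 3 tested genes of triglyceride synthesis none passed 2-fold, against 20% of all 55 genes. Gpam, the acyltransferase of the opening step, was at log2 -0.39 (0.52 in UMIs per barcode). The last-step enzymes Dgat2 and Dgat1 were at 0.13 and 0.45.

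**Figure D2:**
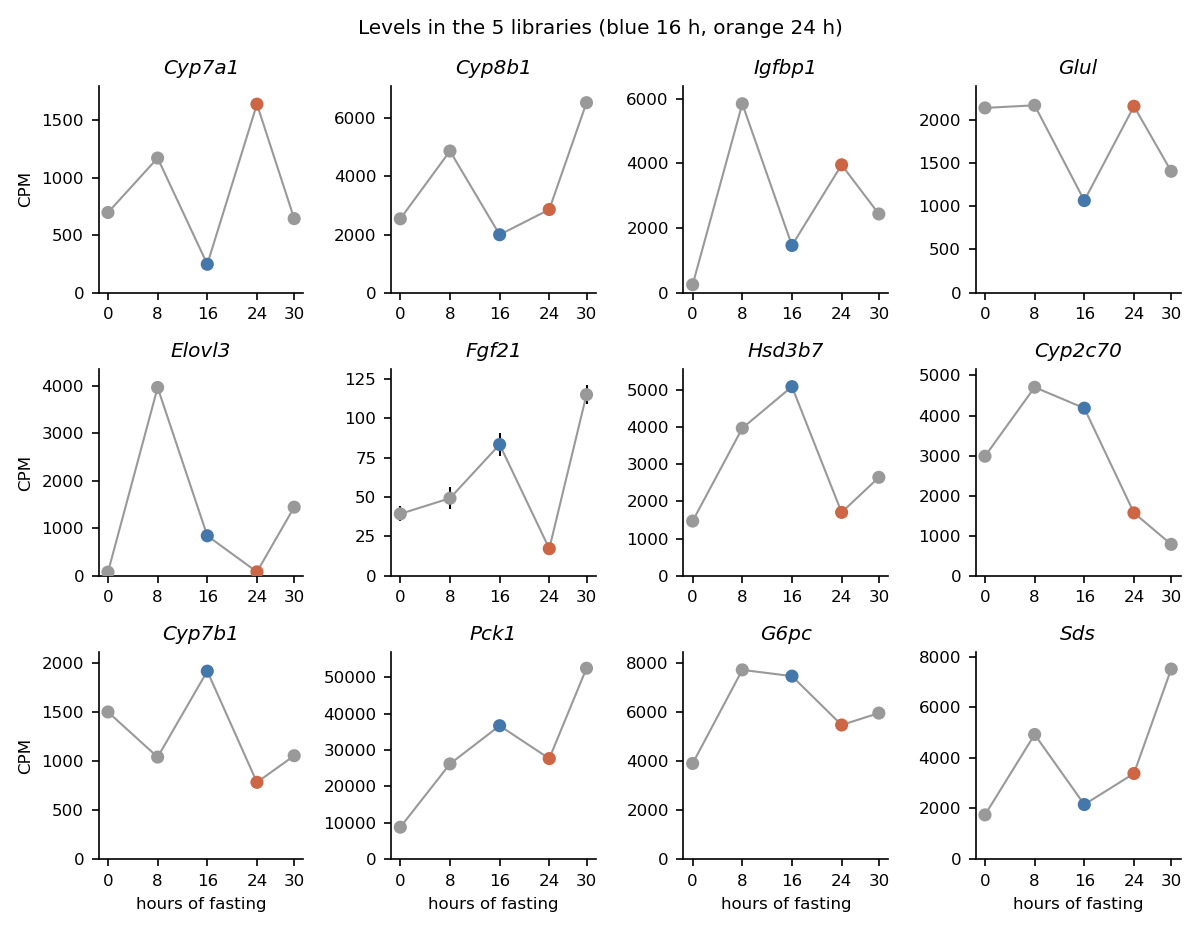
CPM of 12 genes in the 5 libraries against hours of fasting, with the 16 h library in blue, the 24 h library in orange and 95% Poisson intervals as bars where they exceed the points. Cyp7a1 and Glul have their lowest value at 16 h; Fgf21 and Cyp7b1 have theirs at 24 h.

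Of the 5 markers of pericentral position on the panel, 2 were over 2-fold higher at 24 h, against 7.27% of all 55 genes. Their median log2 ratio was 0.57, against -0.046 for all genes. Of the 5 periportal markers none passed 2-fold in either direction, against 20% of all 55 genes, with a median of -0.40. In CPM 3 of the 5 were lower at 24 h, while Sds (log2 0.65) and Alb (0.019) were higher. Cyp7a1, Cyp27a1, Pck1 and Sds stand both on these lists and on those above. Glul (ENSMUSG00000026473; chromosome 1, 153899944 to 153909723), the glutamine synthetase of the cells next to the central vein, stood at 1065 CPM at 16 h and 2156 at 24 h, log2 1.02 (0.98 to 1.06) or 2.02-fold. An exon of Mir8114 overlaps it. The mean of per-barcode CPM put Glul at 0.86. Cyp2e1, an ethanol-oxidising cytochrome, stood at 20241 and 30034 CPM (log2 0.57), whereas Gulo, the last enzyme of vitamin C synthesis, differed by only -0.064. On the periportal side Cyp2f2 stood at 16026 and 10422 CPM (log2 -0.62) and Hsd17b13, a lipid droplet protein, at 4322 and 3280 CPM (-0.40). Both of these were higher in UMIs per barcode, by 0.29 and 0.51. How many pericentral cells each isolation recovered was not tested, and more such cells and more of these RNAs per cell cannot be told apart in library sums.

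To see where along this axis the step took place, barcodes of each library were ordered by log2 of Cyp2f2 over Cyp2e1 UMIs, each with 0.5 added, and the 30% at each end were summed. The ends are ranges of a score and not cell types: 14.1% of barcodes at 16 h and 18.8% at 24 h lay within 0.25 of a cut. The cuts themselves stood at 0 and 2.66 at 16 h and at -2.43 and 0.78 at 24 h. The ends and the middle of the libraries therefore cover different ranges of the score. Alb took 55.2% of UMIs at the Cyp2e1 end and 75.6% at the Cyp2f2 end at 16 h, and 56.3% and 77.6% at 24 h. The median depth was 439 and 771 UMIs per barcode at 16 h and 810 and 1571 at 24 h.

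Of 49 genes with at least 100 UMIs over both libraries together at the given end, 4 were over 2-fold higher (8.16%) and 7 lower (14.3%) at the Cyp2f2 end, and 4 higher (8.16%) and 5 lower (10.2%) at the Cyp2e1 end. The genes were not all the same. Sds was past 2-fold only at the Cyp2e1 end (log2 1.09). Glul (1.26), Fasn (-1.22) and Srebf1 (-1.10) were past it only at the Cyp2f2 end, against 0.86, -0.92 and -0.81 at the Cyp2e1 end. Of 52 tested genes other than Alb and the score genes, 45 had the same sign at both ends in CPM. Elovl3 differed by -3.34 at the Cyp2e1 end and -3.36 at the Cyp2f2 end. Hsd3b7 differed by -1.61 and -1.72, and Cyp7b1 by -1.42 and -1.35 in the same order. Pck1 (-0.38 and -0.42) and G6pc (-0.49 and -0.42) likewise had ratios of 1 sign. Igfbp1 stood at 2119 and 6011 CPM at the Cyp2e1 end and at 1193 and 3072 CPM at the Cyp2f2 end. In CPM without Alb its levels at the ends were close, at 4732 and 13747 against 4897 and 13712 in the same order.

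Of these 52 genes Cyp7a1 was the one whose step differed most between the ends. At the Cyp2e1 end it had 1338 and 11454 UMIs, a log2 ratio of 2.37 (2.29 to 2.46). At the Cyp2f2 end it had 52 and 1362 UMIs, a log2 ratio of 3.85 (3.45 to 4.28). In the middle range it had 132 and 4313 UMIs, the largest ratio of the 3 ranges (log2 4.33, 20.2-fold). That range covers unlike scores in the libraries: Cyp2e1 there stood at 4652 CPM at 16 h and 13416 CPM at 24 h. The part of the shifted cuts in this ratio was not tested. The difference between the ends was 1.48 (1.07 to 1.88), and 1.56 without Alb. Barcodes were also split into 10 equal bins along the score. In CPM without Alb, Cyp7a1 at 16 h went from 3248 in the bin at the Cyp2e1 end to 113 in the bin at the Cyp2f2 end. At 24 h it went from 13841 to 1434. It stayed highest at the Cyp2e1 end at both times, by 28.8-fold and 9.65-fold.

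Free RNA in the cell suspension gives UMIs in barcodes of every position, and its part in these values was not tested. Glul at 24 h lay between 3812 and 5074 CPM without Alb in bins 4 to 10, against 1460 to 1792 at 16 h, while bin 1 held 23186 and 13176. Over bins 4 to 10 Cyp7a1 at 24 h fell within 1434 to 7953. At the Cyp2f2 end Cyp2e1, which formed the score, stood at 1225 CPM at 16 h and 5086 at 24 h. In CPM, Gulo at that end differed by log2 0.065 (-0.053 to 0.18) and Cyp27a1 by -0.012 (-0.088 to 0.065). Without Alb the values were 0.19 (0.068 to 0.30) and 0.11 (0.032 to 0.19). In the middle range Gulo differed by 0.58 and Cyp27a1 by 0.18 in CPM.

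**Figure D3:**
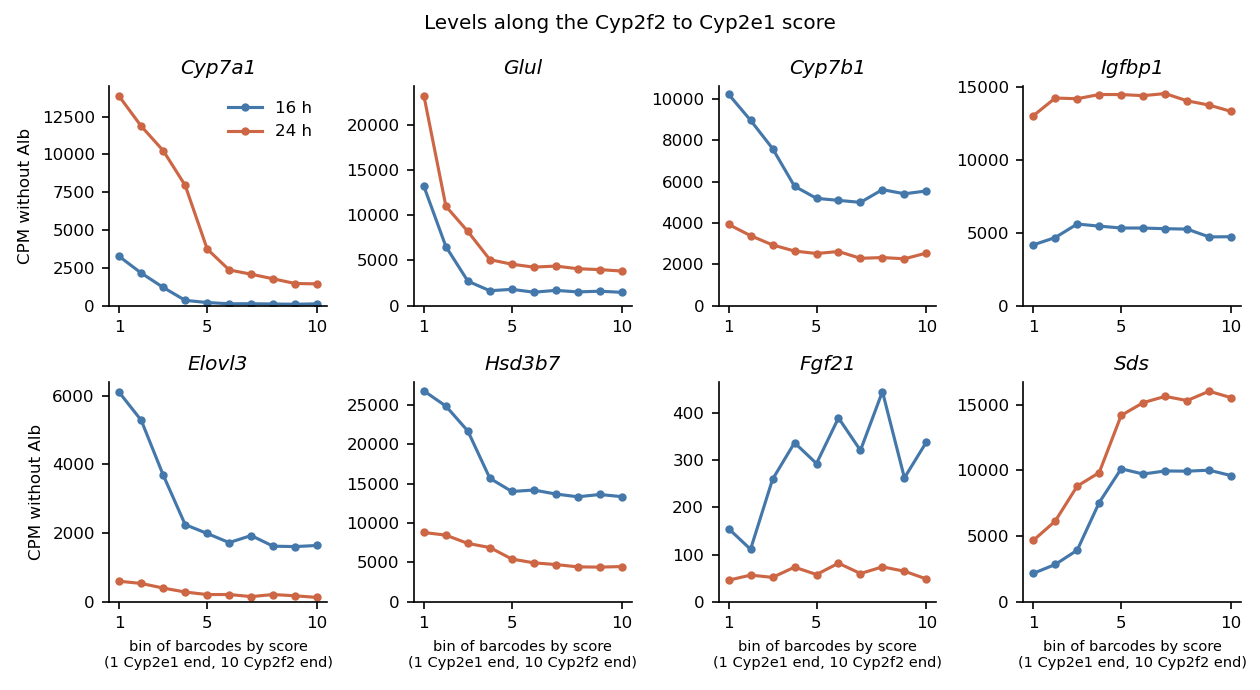
CPM without Alb of 8 genes in 10 equal bins of barcodes ordered by the Cyp2f2 to Cyp2e1 score, from bin 1 at the Cyp2e1 end to bin 10 at the Cyp2f2 end, at 16 h (blue) and 24 h (orange). Cyp7a1 and Glul are highest in bin 1 at both times, and the Elovl3 and Hsd3b7 curves at 24 h lie below those at 16 h in each bin.

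Other genes had steps of unequal size. Sds differed by log2 1.09 at the Cyp2e1 end and 0.54 at the Cyp2f2 end, a difference of -0.55 (-0.64 to -0.46), while its level was the higher one at the Cyp2f2 end at both times (2401 against 1293 CPM at 16 h, and 3500 against 2753 at 24 h). Nr0b2 differed by -0.83 and -0.27, so its lower level at 24 h was larger in size at the Cyp2e1 end. Glul differed by 0.86 and 1.26, and by 1.49 in the middle range. Fgf21 rested on 99 and 48 UMIs at the Cyp2e1 end, where its ratio was -1.77, against -2.60 at the Cyp2f2 end.

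The spread between barcodes was read after each was thinned at random to 300 panel UMIs, which left 8260 barcodes at 16 h (1200 left out) and 8064 at 24 h (494 left out). Glul was the most uneven of the 14 genes read this way, with a variance over mean of 28.5 at 16 h and 16.0 at 24 h, where independent counts would give about 1. At a depth of 500 UMIs, with 3007 and 1293 barcodes too shallow to enter, the values were 31.0 and 27.7. The 10% of barcodes richest in Glul held 87.4% of its UMIs at 16 h and 69.1% at 24 h, and 72.7% and 66.1% when thinned to 500. Thinned to 200 UMIs, with 522 and 4 barcodes left out, the variance over mean was 20.9 and 11.7 and the share 96.9% and 71.8%. The gap between the libraries in either measure thus differed between the depths read. The set of barcodes deep enough to enter changed with the depth, and the part of each was not tested. Barcodes of the Cyp2e1 end, where Glul was highest, were the shallower ones. Their median depth was 439 UMIs at 16 h and 810 at 24 h, against 771 and 1571 at the Cyp2f2 end. Thinning can therefore leave out more barcodes of the Cyp2e1 end, and its part in the Glul values was not tested. The highest barcode had 78 and 68 of its 300 UMIs in Glul, while the barcode at the 99th percentile had 3 and 10.

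Pck1 was abundant across the barcodes. Its UMIs per thinned barcode ran from 4 at the 10th percentile over a median of 11 to 18 at the 90th at 16 h, and from 3 over 8 to 13 at 24 h, with a variance over mean of 2.46 and 1.94. Hsd3b7 had a 90th percentile of 4 at 16 h and 2 at 24 h, with a variance over mean of 2.08 and 1.35. Its mean was 1.64 and 0.565 UMIs, and that of Pck1 10.97 and 8.06. Variance over mean can change with the mean, and the part of the lower means was not tested. Igfbp1 had a median of 0 at 16 h and 1 at 24 h, and a 90th percentile of 1 and 3. Cyp7a1 at 24 h had a 99th percentile of 5 and a highest value of 12, against 2 and 7 at 16 h.

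**Figure D4:**
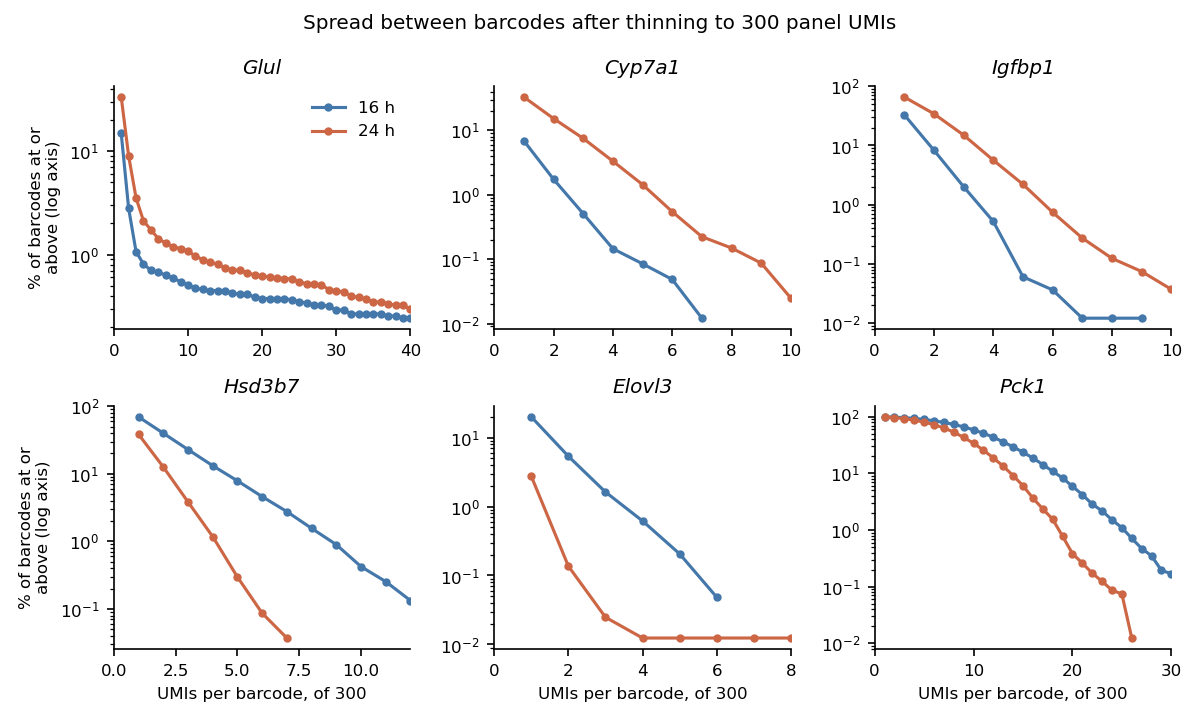
Share of barcodes (log axis) with at least the given number of UMIs of a gene after thinning to 300 panel UMIs, at 16 h (blue) and 24 h (orange), with the Glul axis ending at 40 UMIs. UMIs from free RNA are not removed; the Glul curves have a long flat tail, and the Pck1 curve at 24 h lies to the left of that at 16 h.

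Set beside the fed library of the same clock hour, the 24 h levels of the genes past 2-fold divided. Elovl3 (83.5 CPM against 78.3), Glul (2156 against 2137) and Hsd3b7 (1705 against 1471) differed from the fed level by log2 0.093, 0.013 and 0.21. Cyp7a1 was 2.35-fold higher than in the fed library and Igfbp1 16.1-fold higher. Fgf21 was 2.28-fold lower than fed, Cyp7b1 1.92-fold and Cyp2c70 1.90-fold lower. Srebf1 was 15.1-fold and Fasn 30.5-fold lower than fed. Of 56 genes, 18 differed by over 2-fold between 24 h and 0 h (32.1%). The comparison with 16 h and the one with 0 h share the 24 h library, so they are not independent.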

How the data were processed

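UMI counts of 64 genes came from targeted single-cell libraries (10x Genomics Chromium 3′ v3 with hybrid capture, per the labels' protocols), 1 per time point. The authors deposited 1 matrix of raw UMI counts, not normalized, for which the file headers name Cell Ranger 6.0.1; mm10 is named in the submitters' processing notes. Per the barcode table deposited beside it, each barcode belonged to 1 library. The annotation and the calling of cells are not given in the sources used here. All barcodes were used. No doublet caller was run on so small a panel; dropping the top 5% of barcodes by UMIs was tried instead.

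UMIs were summed per gene and library (Python 3.11.15, NumPy 2.4.6, SciPy 1.17.1). CPM were computed here from the counts deposited. Intervals of levels are exact Poisson, those of ratios exact conditional binomial, and those of a difference between ends normal intervals from the 4 counts. Without replicates no p-value was computed, and a gene was called past 2-fold with at least 100 UMIs. The named genes are all listed panel genes and all past 2-fold, 48 in all, though 2 panel genes, kept in every count, are not reported here; the rule's correlation of patterns over time is left out, as 5 libraries are too few. Members, lists and rules were chosen with earlier results of these data known. Alternatives were a total without Alb, UMIs per barcode, median-of-ratios scaling, mean per-barcode CPM, barcodes with 300 or more UMIs, thinning, other minimums of UMIs, ends of 20% and a score from thinned barcodes. Gene positions came from GENCODE M21 (GRCm38), which held all 64 identifiers with equal names. Data were also simulated for 24 h over 16 h on 55 genes. There 20 of 20 genes changed 4-fold passed 2-fold in the right direction and 0 unchanged genes did, and 96.4% of intervals held the true value. The simulated library sums were Poisson counts, as the intervals assume, with no spread between barcodes, mice or libraries. The simulation therefore checks the calculation and cannot show how the intervals cover such spread.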

Additional observations from a re-analysis of the deposited data

How the results depend on the processing

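The counts of genes past 2-fold, 4 higher and 7 lower at 24 h, moved by more than 1.5 times under 1 setting: in UMIs per barcode 19 genes were higher and 2 lower, because that scale adds 0.91 to every log2 ratio. Under the other settings tried, 3 to 6 genes were higher and 6 or 7 lower. The 11 genes past 2-fold had the same direction in 11 of 11 cases under each of the 7 other scalings or barcode filters, and remained past 2-fold in 6 (UMIs per barcode) to 11 cases. Of the 48 named genes, 20 had the opposite sign in UMIs per barcode, and at most 3 under any other such setting. At each end of the score the counts stayed within 1.5 times under every alternative run. Dropping barcodes under 300 UMIs moved named genes by up to 0.34, most in Cdh5 (0.39 to 0.051), which rests on 164 UMIs. No paired analysis was possible because each time point had 1 library. Without replicates, the spread between mice and between isolations is unknown, and depth limits Fgf21 and the markers of other liver cells most.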

Other observations

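Some tested genes of the panel stood outside the lists and are named here after their values were seen. Fads2, the desaturase that starts the synthesis of long polyunsaturated fatty acids, stood at 3698 CPM at 16 h and 5763 CPM at 24 h (log2 0.64, 0.62 to 0.66). Fads1, which acts later in the same route, stood at 2744 and 3058 CPM (log2 0.16). Rxra, the shared partner of many nuclear receptors, stood at 1662 and 1939 CPM (log2 0.22). Hamp2, a hepcidin gene, stood at 527 and 609 CPM (log2 0.21). Ywhaz, a 14-3-3 protein, stood at 2369 and 1911 CPM (log2 -0.31). For Usf1, a factor that binds the E-box, the interval included 0 (-0.27 to 0.10).

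Of the 64 genes, 9 had too few UMIs to be compared. Igfbp3 had 2 and 30 UMIs, log2 3.15 with a counting interval of 1.17 to 6.26. Pdgfrb, a marker of mesenchymal cells, had 2 and 17 (log2 2.33, 0.25 to 5.48). Gpat2 had 0 and 9 UMIs. Elovl7 had 14 and 15, Pdgfra 7 and 10, and Ptprc 20 and 24. Elovl4 had 1 UMI in the 16 h library alone, and Hsd3b1 and Fgf15 had 0 in both. Taken to allow 3 counts, a count of 0 leaves up to 0.487 CPM at 16 h and 0.288 CPM at 24 h.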
